A study of Mus musculus with 12 samples.

Results

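The genes described here are the glutathione, thioredoxin and NRF2 antioxidant genes of mpkCCD cells, a mouse cell line from the cortical collecting duct of the kidney. They were chosen by gene symbol alone: glutathione S-transferases (Gsta, Gstk, Gstm, Gsto, Gstp, Gstt and Mgst), glutathione peroxidases (Gpx), peroxiredoxins (Prdx) and 20 named genes of the thioredoxin system, glutathione synthesis, superoxide and peroxide removal and the NRF2 pathway. The rule took 59 of the 52015 genes with a value, and no expression level was used. Of the 59, 2 were listed at 0 in every group (Gpx5 and Gpx7), 15 were above 0 but under 0.5 FPKM in every group, and 42 had at least 0.5 FPKM in at least 1 group. FPKM counts sequenced fragments scaled by the length of the gene and by the depth of the library, so levels are already per length and can be compared between genes.

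The study asked what NFAT5, a transcription factor of the response to high tonicity, does to gene expression in these cells. Scr cells carried a non-targeting guide RNA, and Nfat5-KO cells came from 2 clones, N1 and N3, in which Nfat5 had been deleted with CRISPR/Cas9. Both were kept for 5 days in isotonic medium (300 mosmol/kg, groups Scr_300 and Nfat5-KO_300) or in medium raised to 600 mosmol/kg with 100 mM NaCl and 100 mM urea (Scr_600 and Nfat5-KO_600). The 12 libraries comprised 2 for each Scr group and 4 for each Nfat5-KO group, but the values come as 1 per gene and group, so no difference below has a replicate check, an error or a test. The spread between libraries and between the 2 clones is unknown, and an effect of deleting Nfat5 cannot be told apart from a trait of the clones. In bulk RNA, a change in every cell cannot be told apart from a change in the share of cells that make the RNA.

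Cells keep peroxides and reactive electrophiles in check with 2 sulfur-based systems, glutathione and thioredoxin, both recharged with electrons from NADPH. Glutathione is made by glutamate-cysteine ligase and glutathione synthetase, used by glutathione peroxidases and glutathione S-transferases, and recycled by glutathione reductase. Thioredoxin is recycled by thioredoxin reductase and serves the peroxiredoxins. The transcription factor NRF2 (gene Nfe2l2) is held low by KEAP1 and, when released, drives many of these genes through the antioxidant response element. The renal medulla, where collecting ducts face high salt and urea, is a textbook site of osmotic and oxidative stress.

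The targeted gene was checked first. Nfat5 (chr8:107293470-107379517, GRCm38) was at 5.61 FPKM in Scr_300, 7.93 in Scr_600, 3.47 in Nfat5-KO_300 and 6.88 in Nfat5-KO_600. Its RNA was therefore lower in the knockout at both osmolalities, by less than 2-fold, and an mRNA level over the whole gene does not show whether the protein was lost. Epithelial markers (Krt8, Krt18, Epcam, Cdh1, Cdh16, Krt7) were all above 0.5 FPKM in every group and summed to 1177 to 1686 FPKM. Of 12 principal cell markers, 6 to 8 were under 0.5 FPKM in each group, the water channel Aqp2 and the vasopressin receptor Avpr2 among them, while the list's sum was 50.5 FPKM in Scr_300, 34.6 in Scr_600, 69.4 in Nfat5-KO_300 and 99.9 in Nfat5-KO_600. Intercalated cell, proximal tubule, thick limb, fibroblast and endothelial marker lists each summed to at most 1.24 FPKM in every group, and of the leukocyte list Cd68 alone was detected at 0.5 FPKM or more. The proximal tubule sum was 0.07, 0.05, 0.37 and 1.24 FPKM in the same order, most of the last from Lrp2 (1.07 FPKM). The principal cell and proximal tubule sums thus moved with the groups, and their part in the results below was not tested.

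Most of the antioxidant genes stayed within 2-fold in any 1 comparison, and most rows that did not were glutathione S-transferases. In each comparison a gene was counted if it had at least 0.5 FPKM in either group and a ratio of at least 2-fold, where every ratio below is taken on the log2(FPKM + 0.1) scale, which understates changes of genes with low values. At 300 mosmol/kg, 0 of 41 members compared were at least 2-fold higher in Nfat5-KO than in Scr cells, against 1.73% of all genes, and 4 (9.76%) were at least 2-fold lower, against 2.44% of all genes: Gstt1, Gstt3, Gstm7 and Mgst1. At 600 mosmol/kg, 6 of 42 (14.3%) were at least 2-fold higher in the knockout, against 3.76% of all genes: Hmox1, Gclc, Gstm1, Gsta4, Gstm2-ps1 and Gstp2. Another 2 (4.76%) were lower, Nqo1 and Mgst1, against 3.68% of all genes. Of the 6 higher rows, Gstm2-ps1 and Gstp2 share sequence with other rows, and Gstp2 reached 0.5 FPKM only in Nfat5-KO_600 of these 2 groups. Without members that are not protein-coding or have near-identical copies, 4 of 36 were higher. The share over all genes at that setting is not given here. From 300 to 600 mosmol/kg in Scr cells, 2 of 41 (4.88%) rose at least 2-fold, Nqo1 and Gstm3, against 4.81% of all genes, and 2 fell, Gsta4 and Mgst1, against 2.86%. In Nfat5-KO cells, 6 of 41 (14.6%) rose, against 6.25% of all genes: Gstm1, Gstm2-ps1, Gstm3, Gstm7, Gstt1 and Gclc. The mitochondrial peroxiredoxin Prdx3 was the 1 member (2.44%) that fell, against 4.11%. Other counted rows also passed 0.5 FPKM only through the group where they were higher. At 300 mosmol/kg these were Gstm7 and Mgst1, and at 600 mosmol/kg Mgst1. Between osmolalities they were Gstm3 in Scr cells, and Gstm3 and Gstm7 in Nfat5-KO cells. The comparisons share groups, so these counts are not independent of each other. Most of all genes compared also stayed within 2-fold, from 11636 of 12982 (Nfat5-KO_600 against Nfat5-KO_300) to 12174 of 12704 (Nfat5-KO_300 against Scr_300). A short list below with no gene at 2-fold therefore does not stand out from all genes.

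The median log2 ratio of the members stayed near that of all genes. It was 0.01 for Nfat5-KO_300 against Scr_300, 0.04 for Nfat5-KO_600 against Scr_600, -0.07 for Scr_600 against Scr_300 and 0.13 for Nfat5-KO_600 against Nfat5-KO_300. The medians over all genes compared were 0.00, -0.02, -0.04 and -0.04. Summed over the 59 members, the level was 1830 FPKM in Scr_300, 1741 in Scr_600, 1822 in Nfat5-KO_300 and 1972 in Nfat5-KO_600. As a share of each group's total FPKM this was 0.718%, 0.747%, 0.723% and 0.926%. That total was itself lowest in Nfat5-KO_600, at 212963 FPKM, against 254885 in Scr_300, 232921 in Scr_600 and 251998 in Nfat5-KO_300. Gstm1 alone was at 355 FPKM in Nfat5-KO_600, against 91.3, 172 and 94.3 FPKM in Scr_300, Scr_600 and Nfat5-KO_300. Of the 36 members with at least 1 FPKM in every group, 12 had their highest value in Nfat5-KO_600 and 11 their lowest. Each other group held 7 to 9 of the highest and 7 to 10 of the lowest values. The like share over all genes is not given here, so these counts do not set the members apart.

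**Figure D1:**
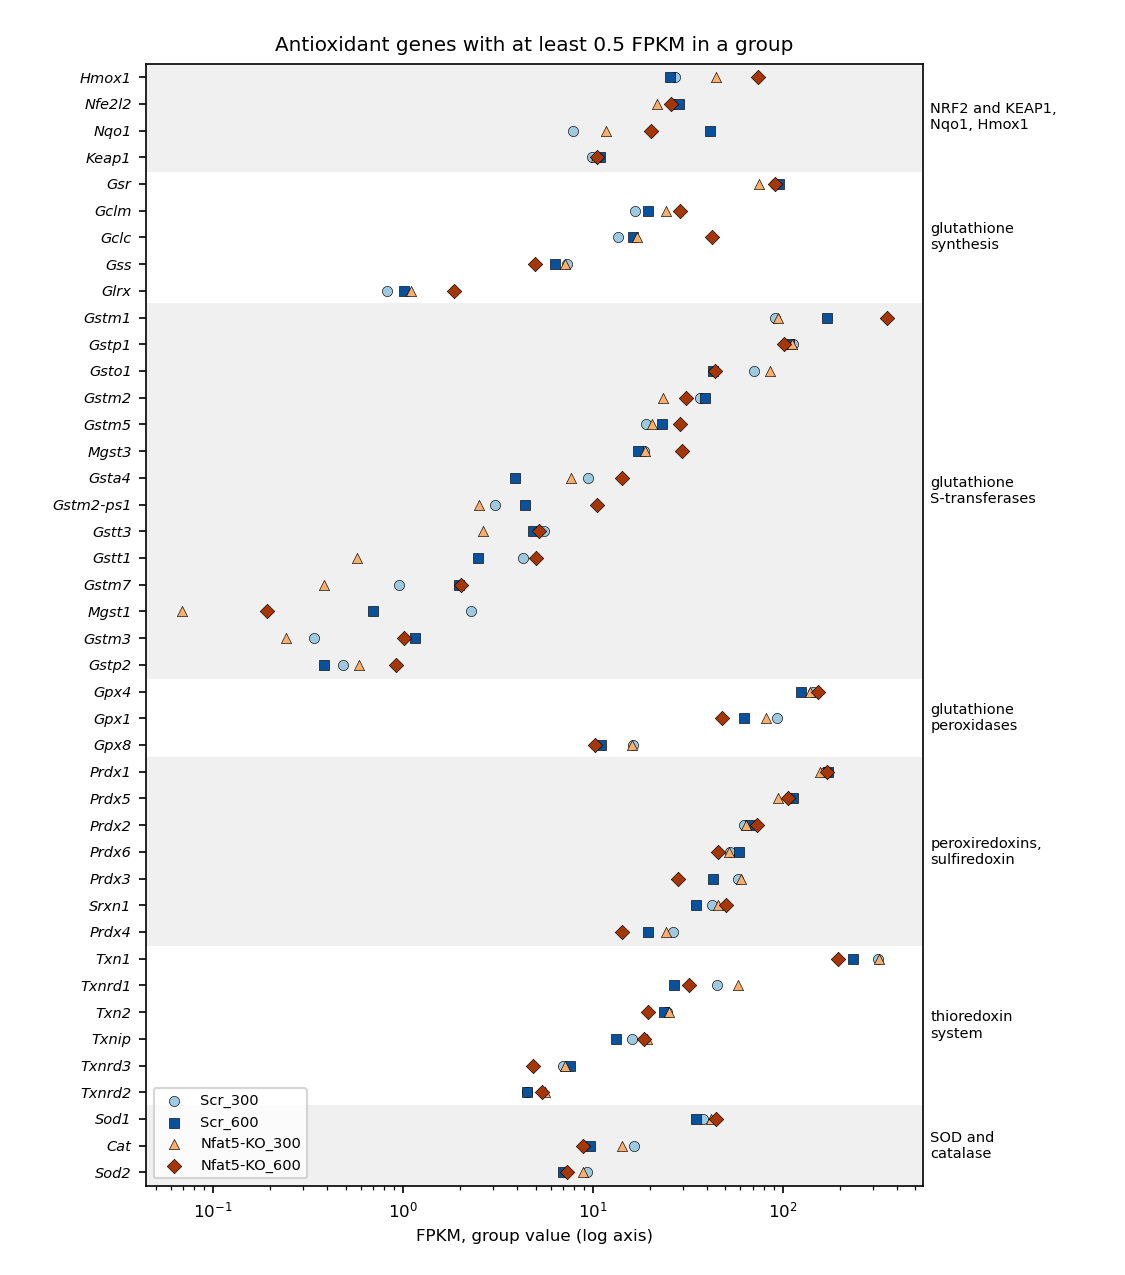
FPKM (log axis) of the 42 members with at least 0.5 FPKM in a group, ordered by role and mean level, with 1 symbol per group value and no error. Symbols of most peroxiredoxins, thioredoxin genes and superoxide dismutases lie close together, while those of several glutathione S-transferases, Nqo1, Hmox1 and Gclc are spread.

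The regulators themselves differed little. Nfe2l2, which encodes NRF2, was at 26.4 FPKM in Scr_300, 28.5 in Scr_600, 21.7 in Nfat5-KO_300 and 25.9 in Nfat5-KO_600. Keap1, its cytoplasmic inhibitor, was at 9.97, 10.9, 10.4 and 10.6 FPKM in the same order. Both stayed within 2-fold in every comparison, and the log2 ratios of Keap1 lay between -0.05 and 0.13. NRF2 is controlled mainly through protein stability, which these data do not measure.

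Nqo1 and Hmox1, the pair of genes most often read as markers of NRF2 activity, moved in different ways. Nqo1 encodes a quinone reductase that uses NADPH or NADH. It was at 7.84 FPKM in Scr_300, 41.5 in Scr_600, 11.8 in Nfat5-KO_300 and 20.4 in Nfat5-KO_600. In Scr cells it rose 5.24-fold with hypertonicity (log2 ratio 2.39), more than any other member compared, and in Nfat5-KO cells 1.72-fold (log2 ratio 0.78). The knockout was above Scr at 300 mosmol/kg (log2 ratio 0.58) and 2.03-fold below it at 600 mosmol/kg (log2 ratio -1.02), and the response in the knockout was 1.61 smaller on the log2 scale. Hmox1, heme oxygenase-1, which breaks down heme, was at 27.1 FPKM in Scr_300 and 25.5 in Scr_600, and at 44.4 in Nfat5-KO_300 and 73.9 in Nfat5-KO_600. Its level hardly differed between the Scr groups (log2 ratio -0.09), and it was 1.64-fold higher in the knockout at 300 and 2.89-fold higher at 600 mosmol/kg (log2 ratio 1.53).

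Nqo1 lies beside the deleted gene. It occupies chr8:107388225-107403206 on the minus strand of GRCm38, and Nfat5 ends 8707 bases away on the plus strand, so that the 3′ ends of both genes face each other. The next genes on the other side, Nob1 and Wwp2, both stayed within 2-fold in all comparisons: Nob1 was at 12.1, 12.2, 14.2 and 9.94 FPKM and Wwp2 at 4.61, 3.86, 4.55 and 2.82 in Scr_300, Scr_600, Nfat5-KO_300 and Nfat5-KO_600. The position was noticed after the values of Nqo1 were seen, and its part in them was not tested.

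**Figure D2:**
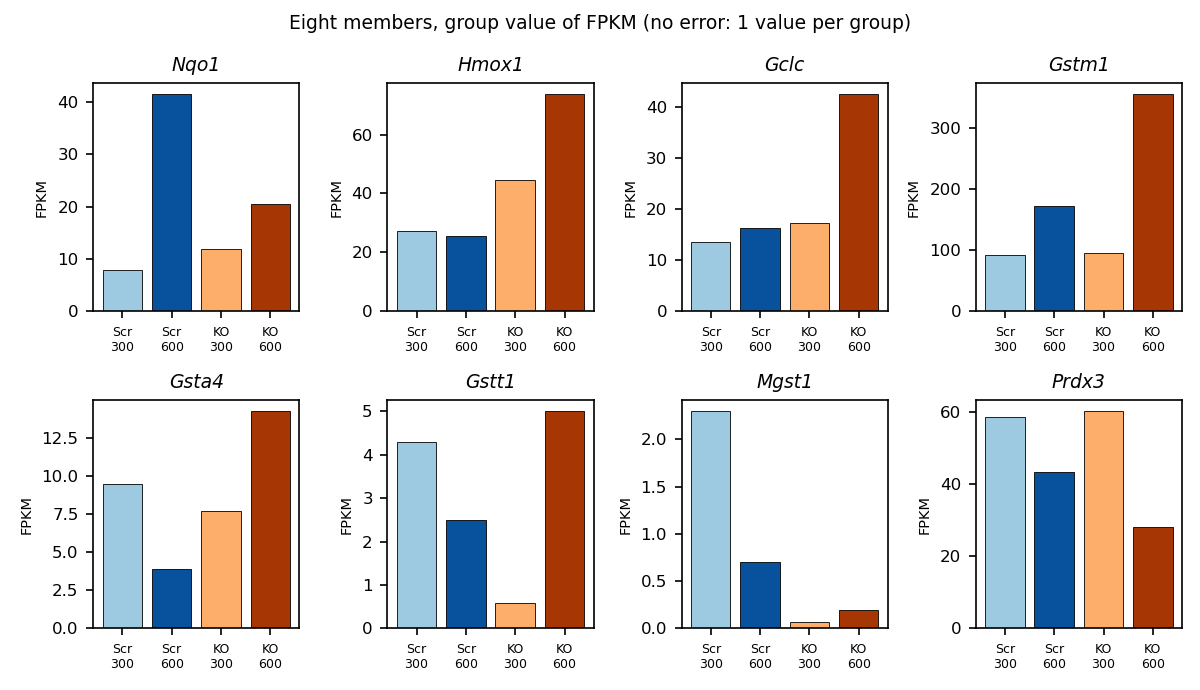
Group values of FPKM (linear axes from 0, a different scale in each panel) for 8 members, with 1 bar per group and no error. Nqo1 is highest in Scr_600 (41.5), Hmox1, Gclc, Gstm1, Gsta4 and Gstt1 are highest in Nfat5-KO_600, Mgst1 is highest in Scr_300 (2.30) and Prdx3 is lowest in Nfat5-KO_600 (28.1).

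Promoter sequence was compared with these values as a description. RefSeq promoter windows on GRCm38.p6, running from 250 bases before to 50 bases after a transcription start, were at hand for 51 of the 59 members, and not for Hmox1, Gclc, Gsta4, Gsr, Gstm2-ps1, Gstt2, Prdx6 and Sod3. The core of the antioxidant response element (TGACNNNGC, both strands) was found in the windows of 10 of the 51 genes (19.6%), against 14.0% of the 27025 genes in the table. The tonicity element TonE, the binding motif of NFAT5, was found in 1 of 51 (1.96%), against 5.74%. Neither motif was found in the windows of Nqo1, Gstm1, Gstt1 and Prdx3, which says only that these letters are not in this window. The members with the antioxidant core were Gclm, Gsta3, Gstm5, Gstm7, Mgst1, Nfe2l2, Prdx1, Sod1, Srxn1 and Txnrd1. Shown are 5 of them, chosen with their values known so that several roles and both flat and changed genes appear, and the TonE match nearer to the start of Txn1, each on the strand of its gene from 5′ to 3′, with the motif in capitals.
Gclm, chr3:122245407-122245447, plus strand: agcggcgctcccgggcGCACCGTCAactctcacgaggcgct
Txnrd1, chr10:82859098-82859138, plus strand: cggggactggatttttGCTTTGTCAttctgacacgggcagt
Prdx1, chr4:116685450-116685490, plus strand: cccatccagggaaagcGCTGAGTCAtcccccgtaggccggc
Gstm7, chr3:107931719-107931759, minus strand: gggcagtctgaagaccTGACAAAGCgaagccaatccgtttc
Mgst1, chr6:138140455-138140495, plus strand: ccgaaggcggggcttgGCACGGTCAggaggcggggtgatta
Txn1, chr4:57956432-57956474, minus strand: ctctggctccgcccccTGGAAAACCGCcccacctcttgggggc

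The core reads along the gene in Gstm7 and on the opposite strand in Gclm, Txnrd1, Prdx1 and Mgst1. From 300 to 600 mosmol/kg in Scr cells the log2 ratio was 0.23 for Gclm, -0.75 for Txnrd1, 0.06 for Prdx1, 0.97 for Gstm7 and -1.59 for Mgst1. In Nfat5-KO cells it was 0.24 for Gclm, -0.85 for Txnrd1, 0.13 for Prdx1 and 2.14 for Gstm7. Mgst1 was under 0.1 FPKM in Nfat5-KO_300, too low for a single ratio. The members with the core that are not shown had small ratios in Scr cells: 0.29 for Gstm5, 0.11 for Nfe2l2, -0.13 for Sod1 and -0.28 for Srxn1, with Gsta3 too low for a ratio.

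Among the genes of glutathione synthesis and reduction, only Gclc reached 2-fold in a comparison. Gclc encodes the catalytic subunit of glutamate-cysteine ligase, the first and rate-limiting enzyme. It was at 13.6 FPKM in Scr_300, 16.3 in Scr_600, 17.2 in Nfat5-KO_300 and 42.6 in Nfat5-KO_600. The first 3 groups were thus close, and Nfat5-KO_600 was 2.60-fold above Scr_600 (log2 ratio 1.38) and 2.47-fold above Nfat5-KO_300 (log2 ratio 1.30). Gclm, the modifier subunit of the same enzyme, was at 16.7, 19.7, 24.5 and 28.8 FPKM. It was 1.46-fold higher in the knockout at either osmolality, and its response to hypertonicity was nearly the same in both genotypes, with log2 ratios of 0.23 and 0.24.

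The other genes of this group stayed within 2-fold in every comparison. Gss, glutathione synthetase, was at 7.32, 6.33, 7.16 and 4.99 FPKM in Scr_300, Scr_600, Nfat5-KO_300 and Nfat5-KO_600, and was lowest where Gclc was highest. Gsr, glutathione reductase, was at 91.4, 95.2, 75.1 and 91.2 FPKM, the highest level of the 5 genes of this group in every group of cells. Glrx, glutaredoxin, which removes glutathione from proteins, was at 0.83, 1.01, 1.11 and 1.86 FPKM, like Gclc highest in Nfat5-KO_600, there 1.76-fold above Scr_600.

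The glutathione S-transferases, which couple glutathione to electrophiles, were most of the members counted at 2-fold. Of 25 members, 14 passed 0.5 FPKM somewhere. At 600 mosmol/kg, 4 of the 14 compared were at least 2-fold higher in the knockout (3.76% of all genes) and 1 was lower (3.68% of all genes). Gstm2-ps1 and Gstp2, which share sequence with other rows, were among the 4. At 300 mosmol/kg, 4 of 13 were lower (2.44% of all genes) and 0 higher (1.73% of all genes). Summed FPKM of the 22 soluble members, all but the Mgst genes, was 356 in Scr_300, 405 in Scr_600, 352 in Nfat5-KO_300 and 602 in Nfat5-KO_600. Gstm1 made up 25.6%, 42.5%, 26.8% and 59.1% of these sums, and without it the sums were 265, 233, 258 and 246 FPKM.

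**Figure D3:**
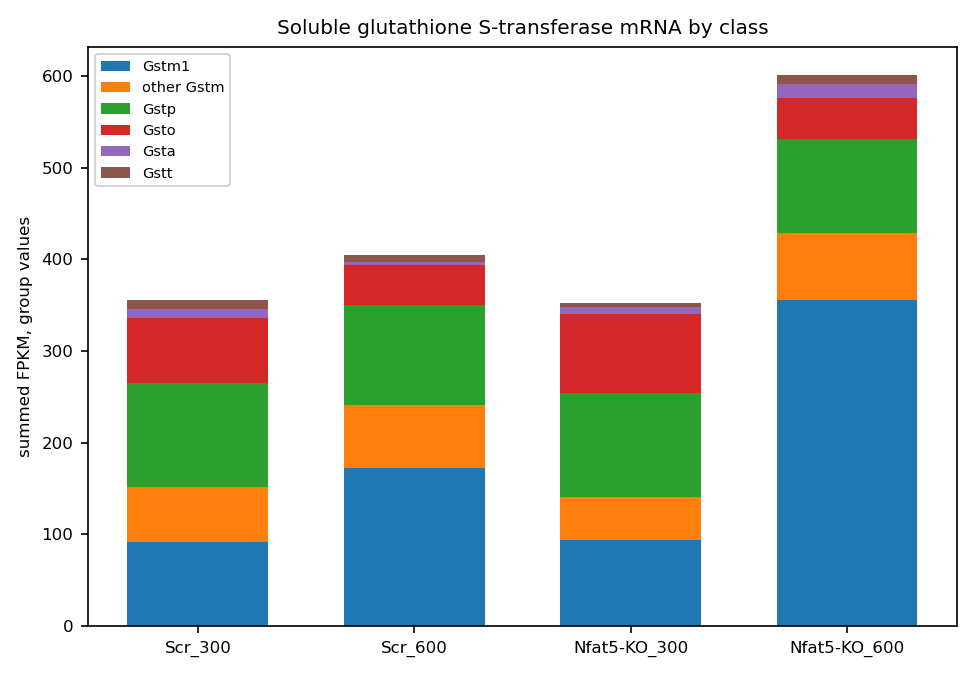
Summed FPKM of the soluble glutathione S-transferase members in each group, stacked by class with Gstm1 shown apart and Gstk1 left out as near 0, with no error as there is 1 value per group. The bar of Nfat5-KO_600 reaches 602 against 352 to 405 in the other groups, and Gstm1 fills 59.1% of it.

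Gstm1, a mu class transferase, was at 91.3 FPKM in Scr_300, 172 in Scr_600, 94.3 in Nfat5-KO_300 and 355 in Nfat5-KO_600. Both genotypes started level at 300 mosmol/kg (log2 ratio 0.05). With hypertonicity it was 1.88-fold higher in Scr cells (log2 ratio 0.91) and rose 3.77-fold in Nfat5-KO cells (log2 ratio 1.91), which put the knockout 2.07-fold above Scr at 600 mosmol/kg (log2 ratio 1.05). This last value lies close to the 2-fold limit. In Nfat5-KO_600 Gstm1 had the highest FPKM of all members, above Txn1.

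The other mu class genes stand in 1 array with Gstm1 on chromosome 3 (107895821-108044894, 149 kb, 7 members). Gstm2 was at 36.9 FPKM in Scr_300, 38.8 in Scr_600, 23.5 in Nfat5-KO_300 and 30.9 in Nfat5-KO_600, and stayed within 2-fold throughout. Gstm5 was at 19.0, 23.2, 20.4 and 29.0 FPKM and also stayed within 2-fold. Gstm3 was at 0.34, 1.16, 0.24 and 1.01 FPKM, which is a rise of 2.87-fold in Scr and of 3.25-fold in Nfat5-KO cells. Gstm7 was at 0.95, 1.97, 0.38 and 2.03 FPKM, so it was 2.18-fold lower in the knockout at 300 mosmol/kg and level with Scr at 600 (log2 ratio 0.04). Gstm4 and Gstm6 were under 0.5 FPKM in every group. All 5 measurable genes of the array were higher at 600 than at 300 mosmol/kg in both genotypes, by log2 0.07 to 1.52 in Scr and 0.39 to 2.14 in Nfat5-KO cells. Over all genes compared, 5871 of 12929 were higher in Scr and 6120 of 12982 in Nfat5-KO cells. The genes of the array are not independent rows, as some share sequence.

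Some of these rows cannot be fully told apart. Gstm2-ps1, a processed pseudogene on chromosome 5, shares 46.9% of its 50-base stretches with other genes, Gstm1 and Gstm3 among them. It was listed at 3.05 FPKM in Scr_300, 4.43 in Scr_600, 2.52 in Nfat5-KO_300 and 10.6 in Nfat5-KO_600, which is 3.34%, 2.57%, 2.67% and 2.97% of the Gstm1 value in the same group. Gstm3 shares 28.8% and Gstm1 18.9% of such stretches. Gstp2, at 0.48, 0.39, 0.59 and 0.92 FPKM, shares 54.3%, mostly with Gstp1, and was 2.10-fold higher in Nfat5-KO_600 than in Scr_600. Reads of such stretches may have been split between copies or left uncounted.

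Gsta4, an alpha class enzyme that clears the lipid peroxidation product 4-hydroxynonenal, went opposite ways in the genotypes. It was at 9.48 FPKM in Scr_300, 3.90 in Scr_600, 7.67 in Nfat5-KO_300 and 14.2 in Nfat5-KO_600. In Scr cells it fell 2.39-fold with hypertonicity (log2 ratio -1.26), and in Nfat5-KO cells it was 1.84-fold higher (log2 ratio 0.88). At 600 mosmol/kg the knockout was 3.58-fold above Scr (log2 ratio 1.84), the largest excess of any member. Gsta1, Gsta2 and Gsta3 were under 0.5 FPKM in every group. Gsta1 shares 90.5% and Gsta2 49.8% of their 50-base stretches with other rows, the gene model Gm10639 among them. Their reads may thus have been left uncounted, and their low values do not show that the genes were silent.

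The theta class was low in the knockout at 300 mosmol/kg. Gstt1 was at 4.29 FPKM in Scr_300, 2.49 in Scr_600, 0.57 in Nfat5-KO_300 and 5.01 in Nfat5-KO_600. The knockout was 6.51-fold lower at 300 mosmol/kg (log2 ratio -2.70), and rose 7.58-fold with hypertonicity (log2 ratio 2.92) to 1.97-fold above Scr_600. Gstt3 was at 5.53, 4.87, 2.63 and 5.21 FPKM, so it was 2.06-fold lower in the knockout at 300 mosmol/kg and level with Scr at 600 (log2 ratio 0.10). Both lie in a run of 4 theta genes on chromosome 10 (75774115-75837424, 63.3 kb), of which Gstt2 and Gstt4 were under 0.5 FPKM in every group. The 3 other genes with a ratio within 50 kb had log2 ratios of -0.56 to 0.15 between Nfat5-KO_300 and Scr_300.

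Gstp1, the pi class enzyme, and Gsto1, the omega class enzyme, were abundant and stayed within 2-fold. Gstp1 was at 113 FPKM in Scr_300, 108 in Scr_600, 112 in Nfat5-KO_300 and 102 in Nfat5-KO_600. It had log2 ratios of -0.14 to -0.02 in the 4 comparisons, the flattest of the abundant transferases, and shares 33.7% of its 50-base stretches with Gstp2 and Gstp-ps. Gsto1 was at 70.5, 43.1, 85.9 and 44.0 FPKM, lower at 600 mosmol/kg by 1.63-fold in Scr and 1.95-fold in Nfat5-KO cells, short of 2-fold.

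Among the microsomal transferases, Mgst1 was at 2.30 FPKM in Scr_300, 0.70 in Scr_600, 0.07 in Nfat5-KO_300 and 0.19 in Nfat5-KO_600. It fell 3.01-fold with hypertonicity in Scr cells (log2 ratio -1.59) and was lower in the knockout at both osmolalities, 2.72-fold at 600 mosmol/kg. Mgst3, the abundant one, was at 18.6, 17.2, 18.8 and 29.5 FPKM, with a log2 ratio of 0.77 between Nfat5-KO_600 and Scr_600. Mgst2 was under 0.5 FPKM in every group, as was Gstk1.

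**Figure D4:**
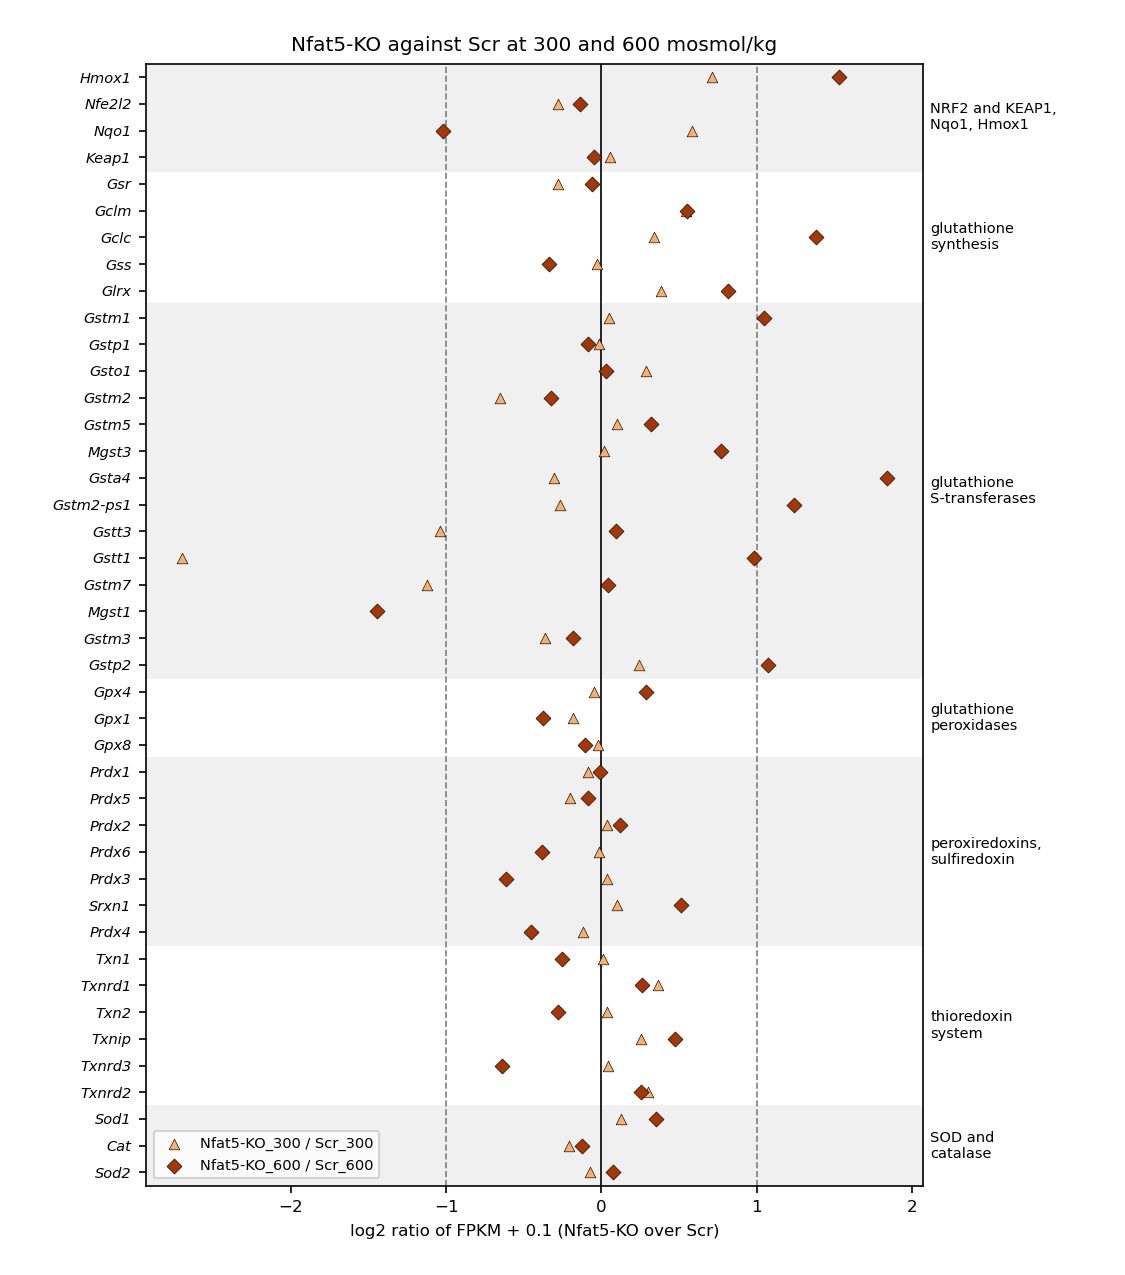
Log2 ratio of FPKM + 0.1, Nfat5-KO over Scr, at 300 (triangles) and 600 mosmol/kg (diamonds) for the same 42 members, with dashed lines at 2-fold; Mgst1 has no triangle because it was under 0.1 FPKM in Nfat5-KO_300. Gstt1 lies at -2.70 at 300 mosmol/kg, and Gsta4 (1.84), Hmox1 (1.53) and Gclc (1.38) lie farthest to the right at 600 mosmol/kg.

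The glutathione peroxidases, which use glutathione to reduce peroxides, had no member at 2-fold in any comparison, where most of all genes also stayed within 2-fold. Gpx4, which reduces lipid peroxides in membranes, was at 144 FPKM in Scr_300, 126 in Scr_600, 140 in Nfat5-KO_300 and 154 in Nfat5-KO_600. It shares 34.7% of its 50-base stretches with other rows, Gpx4-ps2 among them. Gpx1, the main cytosolic enzyme, was at 93.0, 62.3, 82.1 and 48.0 FPKM. It was lower at 600 mosmol/kg in both genotypes, by 1.49-fold in Scr and 1.71-fold in Nfat5-KO cells. Gpx8, of the endoplasmic reticulum, was at 16.3, 11.1, 16.0 and 10.3 FPKM, a like pattern at a lower level. The other 5 peroxidases were under 0.5 FPKM in every group.

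All 7 genes of peroxiredoxins and sulfiredoxin were measured at 10 FPKM or more in every group. Prdx1, a cytosolic enzyme, was at 167 FPKM in Scr_300, 173 in Scr_600, 157 in Nfat5-KO_300 and 172 in Nfat5-KO_600. Prdx5, found in several compartments, was at 109, 114, 94.6 and 107 FPKM, and Prdx2 at 62.5, 67.3, 64.1 and 73.1 FPKM. These 3 genes were flat, with all log2 ratios between -0.20 and 0.19. Prdx3, the mitochondrial enzyme, was at 58.5, 43.1, 60.1 and 28.1 FPKM. It fell 2.14-fold with hypertonicity in Nfat5-KO cells (log2 ratio -1.10) and was 1.36-fold lower in Scr cells (log2 ratio -0.44). Prdx4, which works in the endoplasmic reticulum, was at 26.5, 19.7, 24.4 and 14.3 FPKM, again lowest in Nfat5-KO_600 but within 2-fold. Prdx6 was at 52.8, 59.2, 52.3 and 45.4 FPKM. Srxn1, sulfiredoxin, which restores overoxidised peroxiredoxins, was at 42.7, 35.1, 45.8 and 50.1 FPKM.

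No gene of the thioredoxin system reached 2-fold in any comparison, where most of all genes also stayed within 2-fold. From 300 to 600 mosmol/kg, 4 of the 6 genes had a log2 ratio below 0 in Scr cells and all 6 in Nfat5-KO cells. Over all genes compared, 7058 of 12929 were below 0 in Scr cells and 6862 of 12982 in Nfat5-KO cells. Their summed level, most of it Txn1, was 416 FPKM in Scr_300, 310 in Scr_600, 436 in Nfat5-KO_300 and 277 in Nfat5-KO_600. Txn1, cytosolic thioredoxin, was at 318, 234, 321 and 197 FPKM, the highest of all members in the first 3 groups. Txnrd1, the cytosolic reductase, was at 45.3, 26.8, 58.3 and 32.2 FPKM, lower at 600 mosmol/kg by 1.69-fold in Scr and 1.81-fold in Nfat5-KO cells. Txnip, a protein that binds and blocks thioredoxin, was at 16.2, 13.3, 19.3 and 18.5 FPKM, with a log2 ratio of 0.48 between Nfat5-KO_600 and Scr_600.

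The mitochondrial pair was flatter. Txn2 was at 24.7, 23.7, 25.3 and 19.5 FPKM, and Txnrd2 at 4.51, 4.53, 5.58 and 5.42 FPKM. Txnrd3, which also reduces glutathione, was at 6.96, 7.59, 7.17 and 4.85 FPKM, with a log2 ratio of -0.64 between Nfat5-KO_600 and Scr_600.

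Superoxide dismutases turn superoxide into hydrogen peroxide, which catalase breaks down. Sod1, the cytosolic enzyme, was at 38.1 FPKM in Scr_300, 35.0 in Scr_600, 41.7 in Nfat5-KO_300 and 44.6 in Nfat5-KO_600. Sod2, the mitochondrial one, was at 9.36, 6.99, 8.90 and 7.35 FPKM, and shares 21.0% of its 50-base stretches with other genes. Cat, catalase, was at 16.5, 9.70, 14.3 and 8.89 FPKM, lower at 600 mosmol/kg by 1.70-fold in Scr and 1.60-fold in Nfat5-KO cells. None of these genes reached 2-fold, and the extracellular enzyme Sod3 was under 0.5 FPKM in every group.

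The response to hypertonicity was then compared between genotypes as the log2 ratio in Nfat5-KO cells minus that in Scr cells, over genes with at least 0.5 FPKM in any group. For 8 of 42 members (19.0%) this difference was 1 or more, against 3.88% of all genes: Gstt1 (3.68), Gsta4 (2.14), Gstm2-ps1 (1.51), Gstm7 (1.17), Gstt3 (1.14), Gclc (1.04), Gstm1 (1.00) and Mgst1, the last with a level under 0.1 FPKM in the denominator. For 1 member (2.38%), Nqo1 (-1.61), it was -1 or less, against 3.16% of all genes. The median over the members was 0.14, and over all genes -0.01. These differences have different shapes: Gstt1, Gstt3 and Gstm7 started lower in the knockout at 300 mosmol/kg and reached or passed the Scr level at 600, while Gclc and Gstm1 started close to Scr and ended above it.

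**Figure D5:**
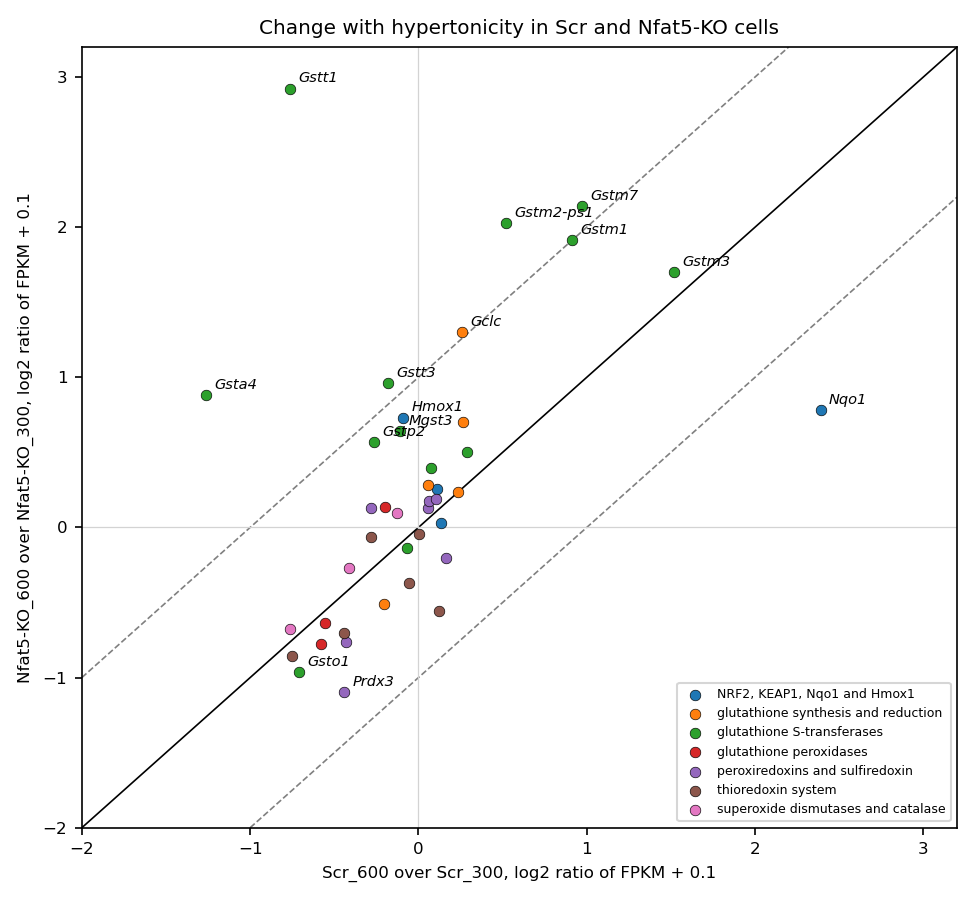
Log2 ratio of FPKM + 0.1 at 600 over 300 mosmol/kg in Scr cells (horizontal) and in Nfat5-KO cells (vertical) for 41 members, coloured by role, with the line of equal response and dashed lines 1 log2 unit away; Mgst1 is left out as it was under 0.1 FPKM in Nfat5-KO_300. Gstt1 and Gsta4 lie far above the line and Nqo1 far below it, and most other members lie within the dashed lines.

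Lists of related genes show whether the surroundings of these enzymes moved too. The lists overlap: Me1, G6pdx, Pgd, Taldo1 and Tkt are both NRF2 targets and NADPH supply genes here. Slc7a11 and Abcc1 are both NRF2 targets and in the list of cystine supply, glutathione breakdown and export. The rise of Me1 in Scr cells is therefore counted in more than 1 list. Of 26 other known NRF2 targets, 21 could be compared between Nfat5-KO_600 and Scr_600, and 4 were at least 2-fold higher and 0 lower, against 3.76% and 3.68% of all genes. Ephx1, microsomal epoxide hydrolase, was at 7.74 FPKM in Scr_300, 3.47 in Scr_600, 6.98 in Nfat5-KO_300 and 14.9 in Nfat5-KO_600. Abcc3, an exporter of conjugates, was at 4.04, 1.70, 3.81 and 7.17 FPKM. Cbr3, a carbonyl reductase, was at 0.22, 0.20, 1.16 and 3.05 FPKM, and Aldh3a1, an aldehyde dehydrogenase, at 0.66, 0.04, 0.15 and 0.60 FPKM. Aldh3a1 was counted although it was under 0.1 FPKM in Scr_600, too low for a single ratio. At 300 mosmol/kg 1 of 21 was higher (Cbr3) and 1 lower (Aldh3a1) in the knockout, against 1.73% and 2.44% of all genes. With hypertonicity 1 of 19 rose (Me1) and 3 fell (Ephx1, Abcc3 and Aldh3a1) in Scr cells, against 4.81% and 2.86% of all genes. In Nfat5-KO cells 3 of 21 rose (Ephx1, Cbr3 and Aldh3a1) and 0 fell, against 6.25% and 4.11%. Ephx1 and Abcc3 thus had the pattern of Gsta4, lower in Scr_600 and highest in Nfat5-KO_600.

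A list of genes for enzymes that supply NADPH had 17 members in the table. From 300 to 600 mosmol/kg in Scr cells, 3 of the 14 compared rose and 0 fell, against 4.81% and 2.86% of all genes. Nadk2, the mitochondrial NAD kinase, was at 6.11 FPKM in Scr_300, 33.0 in Scr_600, 4.27 in Nfat5-KO_300 and 5.16 in Nfat5-KO_600, a rise of 5.34-fold in Scr cells and a level in Nfat5-KO_600 that was 6.30-fold below Scr_600. Me1, malic enzyme, was at 27.1, 57.2, 32.5 and 46.7 FPKM. Idh1, the cytosolic isocitrate dehydrogenase, was at 16.6, 34.7, 8.89 and 18.3 FPKM, and rose in both genotypes. In the other comparisons, 1 of 15 was lower in Nfat5-KO_600 than Scr_600 (Nadk2, against 3.68% of all genes) and 0 higher (3.76%). In Nfat5-KO cells 1 of 15 rose (Idh1, against 6.25%) and 0 fell (4.11%), and at 300 mosmol/kg 0 of 14 reached 2-fold (1.73% higher and 2.44% lower over all genes). Like Nqo1, Nadk2, Me1, Idh1 and Mthfd2 (26.6, 37.6, 26.5 and 23.5 FPKM) were highest in Scr_600. The other genes of the list with a value were not, and the like share over all genes is not given here.

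Of 18 genes for cystine supply, glutathione breakdown and export, 3 of 15 compared were at least 2-fold higher and 1 lower in Nfat5-KO_600 than in Scr_600, against 3.76% and 3.68% of all genes. Cbs, which starts the route from homocysteine to cysteine, was at 1.46 FPKM in Scr_300, 0.28 in Scr_600, 0.50 in Nfat5-KO_300 and 5.02 in Nfat5-KO_600. Chac1, which degrades glutathione inside cells, was at 18.8, 22.6, 12.9 and 8.16 FPKM, 2.74-fold below Scr_600 in the last group. Slc7a11, the cystine importer and a known NRF2 target, was at 2.07, 1.63, 1.44 and 0.99 FPKM, and was lowest in the group where Gclc was highest. At 300 mosmol/kg 0 of 13 were higher and 1 lower (Cbs), against 1.73% and 2.44% of all genes. With hypertonicity 1 of 13 rose (Ggt7) and 2 fell (Cth and Cbs) in Scr cells, against 4.81% and 2.86%, and 4 of 15 rose and 0 fell in Nfat5-KO cells, against 6.25% and 4.11%.

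Among 12 NRF2 partners and regulators compared, Maff, a small Maf partner, was the 1 gene at 2-fold. It was at 9.88 FPKM in Scr_300, 12.3 in Scr_600, 10.8 in Nfat5-KO_300 and 4.73 in Nfat5-KO_600, lower in the last group than in either Scr_600 or Nfat5-KO_300, comparisons in which 3.68% and 4.11% of all genes were lower. All 10 genes of selenoprotein synthesis, on which Gpx1, Gpx4 and the Txnrd enzymes depend, stayed within 2-fold in the 4 comparisons. So did most of all genes, at least 11636 of 12982 compared.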

How the data were processed

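Values were taken from the table of FPKM deposited by the authors, who mapped paired-end reads to mm10 with HISAT2 and counted them per gene with HTSeq before scaling by gene length and depth; versions, strand setting and the way the libraries of a group were combined are not given in the sources used here, and the depth of each library is unknown. Of 54839 rows, 2436 without a value, 311 exact repeats and the 77 rows of 37 symbols listed with several different values (no member among them) were left out, leaving 52015 genes. From these, log2 ratios of FPKM + 0.1 were computed between groups in Python 3.11.15 (pandas 2.3.3, numpy 2.4.6), counting ratios of at least 2-fold over genes with at least 0.5 FPKM in either group; scripts were tested on simulated data. Positions and shared 50-base stretches come from GENCODE M21 (GRCm38). Values in all groups were given for members at 2-fold with 1 FPKM in either group, the 2 most abundant of each role and a fixed list, with others named to fill each role. The members and lists were chosen with earlier results of these data known. Alternatives covered the pseudocount, the filter, the fold, scaling by median of ratios, and members without near-identical copies.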

Additional observations from a re-analysis of the deposited data

How the results depend on the processing

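With 1 value per group, no result here has an error, and none could be set against the spread between libraries. No paired analysis was possible because the values carry no replicate numbers. Mgst1 at 300 mosmol/kg was left aside here, being under 0.1 FPKM in Nfat5-KO_300. The other 22 ratios of members counted as 2-fold had the same sign under median-of-ratios scaling and pseudocounts of 0.01 and 1, and 21, 22 and 14 of them stayed at 2-fold or more. The counts of members moved as follows. With a pseudocount of 1, 2 members were lower in Nfat5-KO_300 than in Scr_300, 0 lower in Nfat5-KO_600 than in Scr_600, 1 rose and 1 fell in Scr cells, and 5 had a larger response in Nfat5-KO cells. With a mean of at least 1 FPKM, 1 was lower in Nfat5-KO_600 than in Scr_600, and 1 rose and 1 fell in Scr cells. With no filter, 10 members of Nfat5-KO_600 were above Scr_600, 2 fell in Nfat5-KO cells, and 2 had a smaller response there. With a fold of 1.5, 1 was higher in Nfat5-KO_300 than in Scr_300, 4 lower in Nfat5-KO_600 than in Scr_600, 4 rose and 6 fell in Scr cells, 12 rose and 8 fell in Nfat5-KO cells, and 3 had a smaller response there. Without copies, 1 rose in Scr cells. The shares over all genes at these other settings are not given here, and the percentages above hold for the main setting only. These counts therefore do not show whether the members exceed all genes. The median at 600 mosmol/kg was -0.0153 with median-of-ratios scaling. Near the limit, Gstm1 had a log2 ratio of 0.99 at 600 mosmol/kg with that scaling, and Nqo1 -0.99 with a pseudocount of 1. The other counts kept within 1.5 times and the other medians within 0.1.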

Other observations

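Other rows of these families, outside the symbol rule, were also measured. Gm10639, a gene model that lies among the Gsta genes on chromosome 9 and shares sequence with Gsta1 and Gsta2, was listed at 24.3 FPKM in Scr_300, 2.94 in Scr_600, 22.9 in Nfat5-KO_300 and 3.95 in Nfat5-KO_600, with a log2 ratio of -3.01 between osmolalities in Scr and -2.51 in Nfat5-KO cells. Its values were known when it was picked for mention. The pseudogene row Gpx4-ps2 was listed at 56.2, 50.7, 53.4 and 59.2 FPKM, 38.1% to 40.3% of Gpx4 in the same group, and Gstp-ps at 39.8, 38.0, 38.1 and 36.6 FPKM. Gstz1, the zeta class transferase of tyrosine breakdown, was at 6.01, 5.13, 6.25 and 6.13 FPKM.

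Of 15 NADPH oxidase genes, which make superoxide or peroxide, 4 had at least 0.5 FPKM in a group (Nox4, Cyba, Noxo1 and Poldip2). Of these, 0 reached 2-fold in any comparison, where most of all genes also stayed within 2-fold. Among 21 other thioredoxin-fold and methionine sulfoxide reductase genes compared at 600 mosmol/kg, Msra, which repairs oxidised methionine, was at 1.35, 1.62, 0.90 and 0.69 FPKM and 2.17-fold lower in the knockout, and Txndc16 was at 0.39, 0.47, 0.47 and 1.13 FPKM and 2.13-fold higher. Over all genes, 3.68% were lower and 3.76% higher in this comparison.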
